A study of Mus musculus with 14 samples.

Results

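The 10 genes described here carry out or control the movement of iron in a cell: the uptake genes Tfrc, Slc11a2 and Slc11a1, the storage genes Fth1 and Ftl1, the exporter gene Slc40a1, the heme genes Hmox1 and Fech, and the regulator genes Aco1 and Ireb2. They were taken by symbol from a table of 22155 genes, and all 10 were among the 11169 genes with enough counts to be tested. The rule that lists them goes by their known roles and uses no measured value, although earlier results of these data were known when it was written. Messenger RNA was sequenced from mouse MLL-AF9-Cas9+ cells, a leukemia made with the MLL-AF9 fusion in which the nuclease Cas9 is also expressed. The sgSgf29 libraries (n = 3) came from cells given a lentiviral guide RNA against Sgf29, a chromatin reader subunit of a histone acetyltransferase complex, and sgCtrl libraries (n = 3) came from cells given a control guide in the same ipUSEPR vector. Both groups carried MLL-AF9 and Cas9 and were selected in puromycin at 2 µg/ml for 3 days. The labels do not say whether the 3 libraries of a group were separate cultures or separate guide sequences, so every p measures the spread between these libraries, which may be technical.

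Iron reaches most cells bound to transferrin, which the transferrin receptor carries into endosomes. There the iron is freed, reduced and pumped into the cytosol by a divalent metal transporter. Iron that is not used is stored inside ferritin, a hollow shell built of heavy and light chains, and the surplus leaves through ferroportin, the only known cellular iron exporter. The regulatory proteins IRP1 and IRP2 bind a short RNA hairpin, the iron-responsive element, when iron is scarce. Bound in a 5′ untranslated region they block translation, and bound in a 3′ untranslated region they protect the transcript from decay. In myeloid cells the pathway is best known from macrophages, which recycle iron from heme and withhold it from microbes.

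The hairpins are shown because they are what the ferritin, transferrin receptor and ferroportin transcripts share. They were searched for in the curated RefSeq mRNAs on GRCm38.p6 as CNNNNNCAGTGN on the sense strand of each transcript, with all 5 bases before the loop able to pair with those after it and at least 4 of 5 further pairs below the unpaired C, G with U counted as a pair and coding parts searched too. A match was found in 28 of 21000 genes searched (0.133%) and in 4 of the 10 iron genes. The pattern is strict, so iron genes without a match, Slc11a2 among them, may still carry an element that departs from it. Further elements of that kind in Tfrc would be missed too. Each printed site is 29 bases long, and the capitals mark the unpaired C and the loop of the hairpin. Tfrc held 4 sites in its 3′ untranslated region on the plus strand, and Fth1 (plus strand) and Ftl1 (minus strand) each held 1 in the 5′ untranslated region.
Tfrc chr16:32631219-32631247: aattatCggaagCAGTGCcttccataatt
Tfrc chr16:32631598-32631626: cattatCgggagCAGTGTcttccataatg
Tfrc chr16:32631663-32631691: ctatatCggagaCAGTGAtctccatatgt
Tfrc chr16:32631710-32631738: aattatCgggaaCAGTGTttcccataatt
Fth1 chr19:9982732-9982760: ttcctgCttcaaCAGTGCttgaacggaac
Ftl1 chr7:45459779-45459807: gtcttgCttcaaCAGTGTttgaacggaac
Slc40a1 held 1 site in its 5′ untranslated region, with its unpaired C at base 108 of an mRNA of 3380 bases. A match is a description of the letters, and binding of the regulatory proteins was not measured.

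**Figure D1:**
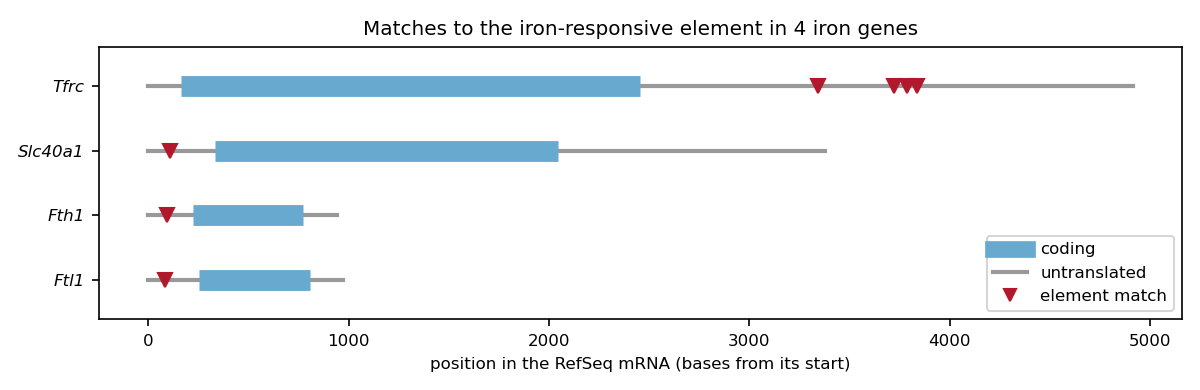
Position of each element match (triangle) in 1 curated mRNA each of Tfrc, Slc40a1, Fth1 and Ftl1, in bases from the mRNA start, with the coding part as a thick bar. The 4 Tfrc matches follow the coding part, and the single matches of Slc40a1, Fth1 and Ftl1 (bases 108, 93 and 86) precede it.

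Genes received 16085601 to 20185751 counts per sgSgf29 library and 16003990 to 21786618 per sgCtrl library. Levels are given as CPM, counts normalised to library size with TMM factors. Ribosomal protein genes took 12.7% ± 0.902 of gene counts in sgSgf29 and 19.3% ± 0.386 in sgCtrl libraries (SD, n = 3 each), and the TMM factors were 1.06 to 1.10 in sgSgf29 and 0.917 to 0.934 in sgCtrl libraries. Over all tested genes the log2 fold change had a median of 0.24 when scaled by library size alone, against 0.01 with TMM. The targeted gene, Sgf29, averaged 14.5 ± 2.59 CPM in sgSgf29 and 39.0 ± 2.47 CPM in sgCtrl libraries (SD, n = 3 each). At an adjusted p under 0.05, 34.4% of all tested genes were lower and 35.4% higher in sgSgf29 libraries. Of 9 mature neutrophil markers 7 were higher and 2 lower. Their summed level was 22162 to 23658 CPM in sgSgf29 and 7261 to 7869 CPM in sgCtrl libraries. Most of that sum was S100a9, at a mean of 13074 CPM in sgSgf29 and 3447 CPM in sgCtrl libraries, and S100a8, at 7967 CPM in sgSgf29 and 2779 CPM in sgCtrl libraries, while Ltf and Camp were lower. Of 5 tested monocyte markers of 6, 4 were higher and 1 lower, with sums of 1628 to 1681 CPM in sgSgf29 and 1519 to 1727 CPM in sgCtrl libraries. Most of this sum was Ly6c2, the lower marker, at a mean of 1035 CPM in sgSgf29 and 1490.3 CPM in sgCtrl libraries, whereas Itgam averaged 532 CPM in sgSgf29 and 137 CPM in sgCtrl libraries and Ccr2 69.1 CPM in sgSgf29 and 7.62 CPM in sgCtrl libraries. Both tested markers of mast cells, megakaryocytes and lymphocytes, of 8 listed, were lower, and Cpa3, Pf4 and Cd3e were at 0 in every library, with sums of 3.57 to 4.79 CPM in sgSgf29 and 11.9 to 12.6 CPM in sgCtrl libraries.

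In the sgSgf29 cells the 2 ferritin genes and Tfrc were lower, while Slc40a1, Slc11a1, Hmox1 and Fech were higher. Slc11a2, Aco1 and Ireb2 did not pass the test. Hence 3 of the 10 genes were lower and 4 higher at an adjusted p under 0.05, where 34.4% of all tested genes were lower and 35.4% higher. The 7 of 10 that changed stand beside 69.8% over all tested genes, so that changing at all was about as common among the iron genes as elsewhere. The groups did not overlap for 9 of the 10 (all but Slc11a2), beside 72.1% of all tested genes. The median log2 fold change of the 10 was 0.10, beside the 0.01 of the tested genes.

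**Figure D2:**
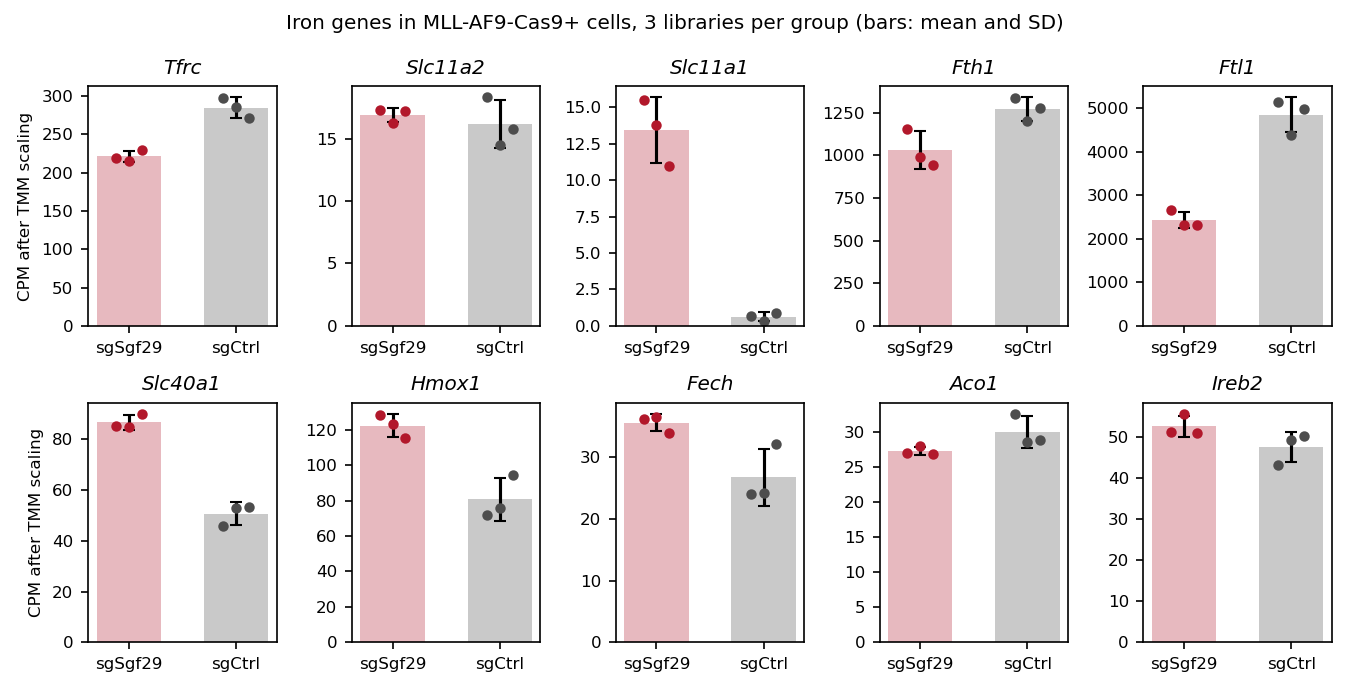
CPM after TMM scaling (y axes, each from 0) of the 10 iron genes in the 3 sgSgf29 (red, left) and 3 sgCtrl libraries (grey, right), with bars for the mean and SD. Ftl1 averaged 2433 CPM in sgSgf29 and 4849 CPM in sgCtrl libraries, and only Slc11a2 has libraries of the groups interleaved.

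Tfrc encodes the transferrin receptor and lies on chromosome 16 from 32608896 to 32632794 (GRCm38.p6, as all positions here). It measured 219, 215 and 229 CPM in the sgSgf29 libraries, against 298, 285 and 270.5 CPM in the sgCtrl libraries. The highest sgSgf29 value lay under the lowest sgCtrl value. The log2 fold change was -0.36 (SE 0.06, adjusted p = 3.39e-05 by edgeR's quasi-likelihood test). With library size alone as the scaling it was -0.13 and did not pass (adjusted p = 0.0617).

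Slc11a2 encodes DMT1, the divalent metal transporter that moves iron out of endosomes, and lies on chromosome 15 from 100387898 to 100424209. It measured 17.3, 16.3 and 17.2 CPM in the sgSgf29 libraries, against 18.3, 14.5 and 15.7 CPM in the sgCtrl libraries. The sgCtrl libraries spanned the whole range of the sgSgf29 libraries. Its log2 fold change was 0.06 (SE 0.11, 95% interval -0.15 to 0.28, adjusted p = 0.606). The predicted gene Gm5475 overlaps it on the opposite strand, but held 0 to 4 counts in any library. With library size alone Slc11a2 passed the test at 0.30 (adjusted p = 0.0192), and without sgCtrl replicate 2 its value was -0.01.

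Slc11a1 encodes NRAMP1, a relative of DMT1 that pumps iron and manganese out of the phagosomes of macrophages and neutrophils, and lies on chromosome 1 from 74375014 to 74386057. It had 264, 306 and 225 counts in the sgSgf29 libraries, against 11, 5 and 18 counts in the sgCtrl libraries, or 15.5, 13.8 and 10.99 CPM in sgSgf29 and 0.699, 0.335 and 0.899 CPM in sgCtrl libraries. It was close to absent in the sgCtrl cells and low but clearly counted in the sgSgf29 cells. The means differed 20.8-fold, and the log2 fold change was 4.31 (SE 0.24, adjusted p = 2.74e-12). Within a library, Slc11a2 had 1.12, 1.18 and 1.56 counts for each Slc11a1 count in sgSgf29 libraries, against 26.2, 43.2 and 17.5 in sgCtrl libraries. The difference in the log2 ratio was -4.33 (exact permutation test, two-sided, p = 0.1, the smallest that 3 against 3 libraries allow, and 0.133 adjusted over 4 ratios). Of the 9 mature neutrophil markers 7 were higher as Slc11a1 was, while Ltf and Camp were lower, as given above. Of 14 tissue macrophage markers 4 were tested, of which Adgre1 and Cd68 were higher and Vcam1 was lower. The macrophage markers summed to 86.7 to 91.8 CPM in sgSgf29 and 21.5 to 25.6 CPM in sgCtrl libraries, while 8 of the 14, among them C1qa, C1qb, C1qc, Marco, Timd4, Vsig4 and Cd5l, were at 0 in every library. The part of these cell type markers in any of the results was not tested. In bulk RNA, fewer cells that express a gene and less of its RNA per cell cannot be told apart.

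Fth1 encodes the ferritin heavy chain, which oxidises iron as it enters the shell, and lies on chromosome 19 from 9980600 to 9985111. It measured 1154, 992 and 940.3 CPM in the sgSgf29 libraries, against 1335, 1200.0 and 1276 CPM in the sgCtrl libraries. The groups did not overlap, although the highest sgSgf29 library came within 50 CPM of the lowest sgCtrl library. Its log2 fold change was -0.31 (SE 0.08, adjusted p = 0.0021). It did not pass with library size alone, at -0.08 (adjusted p = 0.351). Before scaling, Fth1 made up 0.102% to 0.122% of gene counts in sgSgf29 and 0.112% to 0.122% in sgCtrl libraries.

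Ftl1 encodes the ferritin light chain, which favours growth of the mineral core, and lies on chromosome 7 from 45457944 to 45459886. It measured 2656, 2317 and 2326 CPM in the sgSgf29 libraries, against 5157, 4394 and 4996 CPM in the sgCtrl libraries. The sgSgf29 cells thus had about 0.502 of the sgCtrl level, with no overlap. The log2 fold change was -0.99 (SE 0.09, adjusted p = 3.34e-09), and it was -0.76 with library size alone (adjusted p = 2.02e-08). Ftl1 is on a list of lower genes that the study chose on these samples, so that list is not independent evidence of its direction.

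The ferritin chains therefore changed unequally. Fth1 had 0.434, 0.428 and 0.404 counts for each Ftl1 count in the sgSgf29 libraries, against 0.259, 0.273 and 0.255 in the sgCtrl libraries. This ratio does not depend on how libraries are scaled, and its log2 value was higher by 0.69 in sgSgf29 libraries (exact permutation test, two-sided, p = 0.1, the smallest possible, and 0.133 adjusted over 4 ratios). The ratio of Tfrc to Fth1 was 0.190, 0.217 and 0.243 in sgSgf29 and 0.223, 0.237 and 0.212 in sgCtrl libraries. These overlapped, with a log2 difference of -0.05 (exact permutation test, two-sided, p = 0.7), which was 0.04 without sgSgf29 replicate 1.

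**Figure D3:**
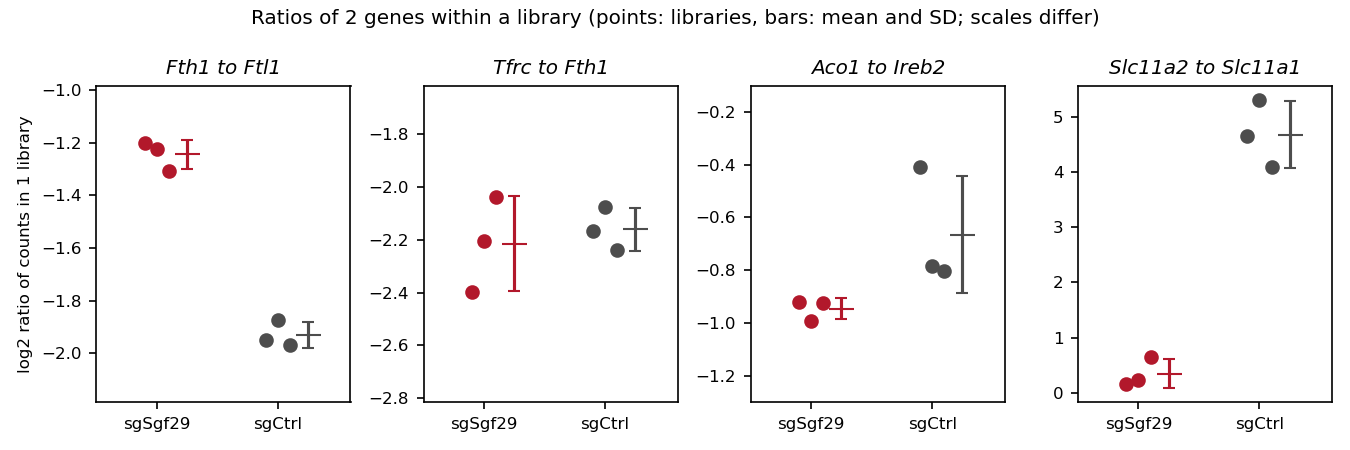
log2 ratio of the counts of 2 genes in each library (points) with mean and SD beside them, for sgSgf29 (red, left) and sgCtrl (grey, right), on scales that differ between panels. The ratio of Fth1 to Ftl1 averaged -1.24 in sgSgf29 and -1.93 in sgCtrl libraries, while the ratio of Tfrc to Fth1 averaged -2.21 in sgSgf29 and -2.16 in sgCtrl libraries.

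Together the ferritin genes took 0.404%, 0.364% and 0.356% of gene counts in the sgSgf29 libraries, against 0.595%, 0.522% and 0.576% in the sgCtrl libraries. The widest 95% Wilson interval was 0.591% to 0.599%, so counting error was small beside the spread between libraries, and such intervals cover counting error only. The mean share was 0.375% ± 0.0260 in sgSgf29 and 0.564% ± 0.0379 in sgCtrl libraries (SD, n = 3 each), a difference of -0.190 percentage points (exact permutation test, two-sided, p = 0.1). The annotation names 2 pseudogene copies of Fth1 and 3 of Ftl1, and ferritin reads may be split between copies. Ftl1-ps1, the only copy looked up, had 159, 163 and 116 counts in sgSgf29 and 253, 262 and 367 counts in sgCtrl libraries. That is small beside the Ftl1 counts of 45329 to 51411 in sgSgf29 and 65626 to 99996 in sgCtrl libraries. Reads with several matches, which the table does not assign to genes, were 5.41% to 6.23% of all counts in sgSgf29 and 6.42% to 7.57% in sgCtrl libraries, and their part in the ferritin values was not tested.

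Slc40a1 encodes ferroportin and lies on chromosome 1 from 45908070 to 45926532. It measured 85.1, 84.5 and 89.8 CPM in the sgSgf29 libraries, against 45.6, 53.0 and 53.3 CPM in the sgCtrl libraries. All sgSgf29 libraries were well above all sgCtrl libraries. Its log2 fold change was 0.77 (SE 0.07, adjusted p = 6.81e-09), and it lay between 0.70 and 1.00 in every alternative tried. Of 11 genes listed for export and systemic control 4 were tested, and all 4 were higher, with a median log2 fold change of 0.44. All 4 were also higher with library size alone. The share of higher genes among all tested genes was 35.4%, and 49.9% with library size alone. Cp, the ferroxidase ceruloplasmin that works with ferroportin, averaged 6.45 ± 0.941 CPM in sgSgf29 and 0.868 ± 0.368 CPM in sgCtrl libraries (log2 fold change 2.94, SE 0.27). Fbxl5, the iron-sensing ubiquitin ligase subunit that marks IRP2 for destruction, was higher by 0.34 (SE 0.08), and the ubiquitin ligase Herc2 by 0.53 (SE 0.08), both on the log2 scale. The ferroxidase gene Heph and the hepcidin gene Hamp2 had no counts in any library.

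Hmox1 encodes heme oxygenase-1, which opens the heme ring and frees its iron, and lies on chromosome 8 from 75093618 to 75100593. It measured 128, 123 and 115 CPM in the sgSgf29 libraries, against 72.0, 75.5 and 94.7 CPM in the sgCtrl libraries. sgCtrl replicate 3 was the highest of its group, yet below every sgSgf29 library. The log2 fold change was 0.59 (SE 0.08, adjusted p = 2.48e-06), and 0.73 without sgCtrl replicate 3. Fech encodes ferrochelatase, which inserts iron into protoporphyrin as the last step of heme synthesis, and lies on chromosome 18 from 64456542 to 64489098. It measured 36.3, 36.6 and 34.0 CPM in the sgSgf29 libraries, against 24.0, 24.2 and 32.1 CPM in the sgCtrl libraries. sgCtrl replicate 3 again stood nearest to the sgSgf29 libraries. For Fech the log2 fold change was 0.40 (SE 0.10, adjusted p = 0.00127), and 0.56 without that library.

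The other heme genes did not move as a block. Of 13 tested genes of heme synthesis 5 were lower and 2 higher, with a median log2 fold change of -0.11. With library size alone, however, 2 were lower and 5 higher. For comparison, 34.4% of all tested genes were lower and 35.4% higher, or 21.4% lower and 49.9% higher with library size alone. Alad, which makes the pyrrole porphobilinogen, averaged 22.0 ± 0.413 CPM in sgSgf29 and 43.1 ± 3.28 CPM in sgCtrl libraries (log2 fold change -0.97, SE 0.08). The porphyrin transporter Abcb6 was lower by 0.91 and the heme-binding protein gene Pgrmc1 by 0.44, while the mitochondrial transporter gene Abcb10 was higher by 0.26 and Uros, for uroporphyrinogen III synthase, by 0.37, all on the log2 scale. Of 8 tested genes of heme breakdown and transport 1 was lower and 1 higher, and with library size alone 1 was lower and 4 were higher. Slc48a1, a heme importer of endosomes, had a log2 fold change of -0.53 (SE 0.06), and Lrp1, a scavenger receptor that takes up heme bound to hemopexin among many other ligands, one of 3.03 (SE 0.08). Erythroid markers were almost absent, with 7 of 10 (among them Hbb-bs, Hbb-bt, Hba-a1, Hba-a2, Slc4a1 and Rhag) at 0 in every library and sums of 1.40 to 1.47 CPM in sgSgf29 and 1.40 to 2.16 CPM in sgCtrl libraries. The only erythroid marker tested, Klf1, had a log2 fold change of -0.32 (adjusted p = 0.357).

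Ireb2 encodes IRP2 and lies on chromosome 9 from 54862658 to 54912534. It measured 51.3, 55.7 and 51.0 CPM in the sgSgf29 libraries, against 43.3, 49.3 and 50.3 CPM in the sgCtrl libraries. The lowest sgSgf29 library and the highest sgCtrl library were less than 1 CPM apart. In the test the log2 fold change was 0.14 (SE 0.07, 95% interval -0.00221 to 0.29, adjusted p = 0.0918). It passed the test with library size alone (0.38, adjusted p = 0.000279), with upper-quartile scaling (0.17, adjusted p = 0.0499) and without sgCtrl replicate 3 (0.19, adjusted p = 0.0351).

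Aco1 encodes IRP1, which serves as the cytosolic aconitase while it holds an iron-sulfur cluster, and lies on chromosome 4 from 40143265 to 40199009. It measured 27.1, 28.0 and 26.9 CPM in the sgSgf29 libraries, against 32.6, 28.7 and 28.8 CPM in the sgCtrl libraries. Only sgCtrl replicate 1 stood away from the rest. The log2 fold change was -0.14 (SE 0.08, 95% interval -0.30 to 0.03, adjusted p = 0.16), and its sign turned to 0.10 with library size alone. Aco1 had 0.527, 0.502 and 0.527 counts for each Ireb2 count in sgSgf29 libraries, against 0.752, 0.581 and 0.574 in sgCtrl libraries, a difference of -0.28 in the log2 ratio with no overlap (exact permutation test, two-sided, p = 0.1, and 0.133 adjusted over 4 ratios). Without sgCtrl replicate 1 that difference was -0.15.

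**Figure D4:**
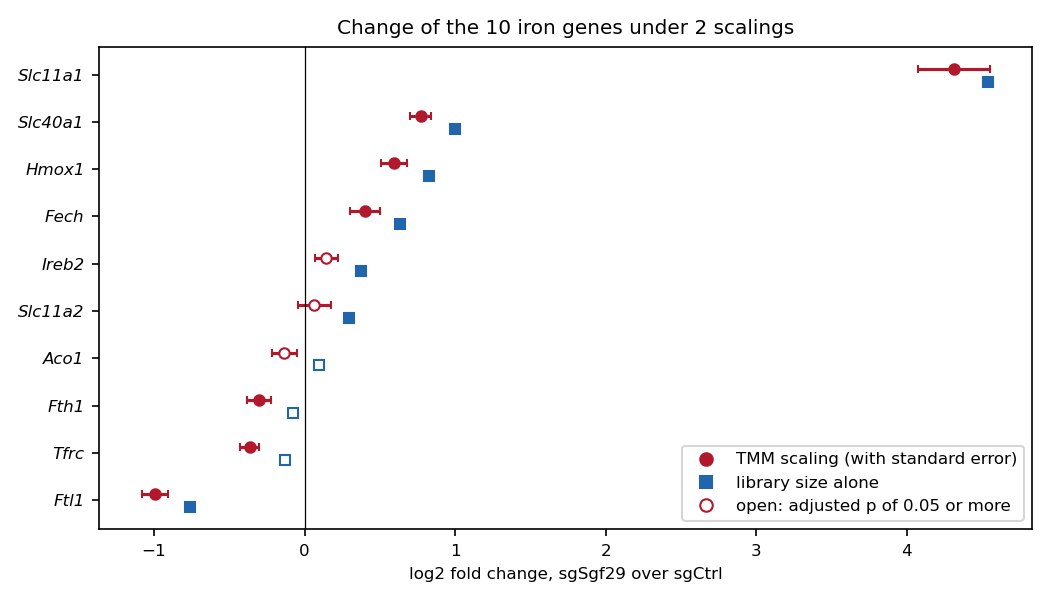
log2 fold change of sgSgf29 over sgCtrl (x axis) for the 10 iron genes, with TMM scaling (red circles, bars for the SE) and with library size alone (blue squares), open where the adjusted p was 0.05 or more. Library size alone shifts every gene to the right, so that Tfrc and Fth1 become open at -0.13 and -0.08 while Ftl1 keeps its fall at -0.76.

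With library size alone 21.4% of all tested genes were lower and 49.9% higher, against the even division under TMM, and of the iron genes 1 (Ftl1) was lower and 6 were higher. The falls of Tfrc and Fth1 thus did not pass with library size alone. Besides TMM, they passed with RLE scaling (log2 fold changes -0.37 for Tfrc and -0.32 for Fth1). With upper-quartile scaling they passed at -0.34 for Tfrc and -0.28 for Fth1. The fall of Ftl1 and the rises of Slc40a1, Slc11a1, Hmox1 and Fech passed the test under both TMM and library size alone.

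Levels can be set against each other per length, as CPM per kilobase of the median curated mRNA. In sgSgf29 libraries Ftl1 led at 2508 and Fth1 followed at 1092 CPM per kilobase, then Hmox1 at 77.5, Tfrc at 44.5, Slc40a1 at 25.6, Fech at 12.4, Ireb2 at 9.07, Aco1 at 6.32, Slc11a1 at 5.82 and Slc11a2 at 3.97. In that order only Aco1 and Slc11a1 overlapped with their neighbour. In sgCtrl libraries the order by level was Ftl1 at 4999, Fth1 at 1349, Tfrc at 57.3, Hmox1 at 51.2, Slc40a1 at 14.98, Fech at 9.31, Ireb2 at 8.20, Aco1 at 6.95, Slc11a2 at 3.79 and Slc11a1 at 0.280 CPM per kilobase. There Tfrc overlapped with Hmox1, Fech with Ireb2, and Ireb2 with Aco1. The storage transcripts thus stood more than 10-fold above all others in both groups, and Hmox1 ranked above Tfrc without overlap in the sgSgf29 libraries alone.

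Among 12 tested genes of iron entry and the endosome, 5 were lower and 3 higher, with a median log2 fold change of -0.34. Beside them, 34.4% of all tested genes were lower and 35.4% higher. Steap3, the endosomal ferrireductase, averaged 19.9 ± 1.09 CPM in sgSgf29 and 28.6 ± 1.15 CPM in sgCtrl libraries (log2 fold change -0.51, SE 0.09). The iron chaperone genes Pcbp1 and Pcbp2, whose proteins also bind RNA, were each lower by 0.36 on the log2 scale. Lcn2, a secreted siderophore-binding protein of neutrophil granules, averaged 964 ± 11.3 CPM in sgSgf29 and 367.7 ± 0.639 CPM in sgCtrl libraries (log2 fold change 1.39, SE 0.06). Mcoln1, an endolysosomal cation channel that passes iron, was higher by 0.28, and Hfe, a partner of the transferrin receptors, by 0.60 on the log2 scale, at means of 2.84 CPM in sgSgf29 and 1.90 CPM in sgCtrl libraries. With library size alone 2 of the 12 were lower and 5 higher, beside 21.4% and 49.9% of all tested genes.

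Of 26 tested genes for mitochondrial iron and iron-sulfur cluster assembly, 15 were lower and 3 higher, with a median log2 fold change of -0.36. Among all tested genes 34.4% were lower and 35.4% higher. The mitochondrial chaperone gene Hspa9, which helps hand over new clusters, averaged 302 ± 8.23 CPM in sgSgf29 and 559 ± 27.1 CPM in sgCtrl libraries (log2 fold change -0.89, SE 0.06). Ciapin1 and Ndor1, partners in the electron chain that feeds cytosolic cluster assembly, were lower by 0.82 and 0.90. The cluster assembly factor gene Iba57 was higher by 0.76 and the sulfur donor gene Nfs1 by 0.32, both on the log2 scale. With library size alone 12 of these genes were lower and 9 higher, beside 21.4% and 49.9% of all tested genes.

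Hmox1, Slc40a1 and both ferritin genes are known targets of the activator NRF2 and the heme-sensing repressor BACH1, so 13 further targets were listed and 12 were tested. Of these 6 were higher and 3 lower, with a median log2 fold change of 0.13, where 35.4% of all tested genes were higher and 34.4% lower. Nqo1, a quinone reductase, averaged 58.2 ± 5.11 CPM in sgSgf29 and 27.4 ± 1.95 CPM in sgCtrl libraries (log2 fold change 1.08, SE 0.08). The autophagy receptor gene Sqstm1 was higher by 0.76 and G6pdx, for glucose-6-phosphate dehydrogenase, by 0.32. The glutathione synthesis genes Gclc and Gclm were lower by 1.03 and 0.27, and the cystine transporter gene Slc7a11 by 0.38, all on the log2 scale. With library size alone 1 was lower and 8 higher, beside 21.4% and 49.9% of all tested genes.

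Of 12 tested regulators of iron gene transcription 9 were higher and 1 lower, with a median log2 fold change of 0.43. The shares over all tested genes were 35.4% higher and 34.4% lower. With library size alone 10 of the regulators were higher and 1 lower, beside 49.9% and 21.4% of all tested genes. Bach1 itself averaged 56.8 ± 3.77 CPM in sgSgf29 and 30.0 ± 1.98 CPM in sgCtrl libraries (log2 fold change 0.92, SE 0.08). Zfp36, for the RNA decay factor tristetraprolin, was higher by 1.09, and Arnt, the partner of the hypoxia factors, by 0.75. Myc was lower, at 113 ± 12.9 CPM in sgSgf29 and 222 ± 12.7 CPM in sgCtrl libraries (log2 fold change -0.98, SE 0.08).

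**Figure D5:**
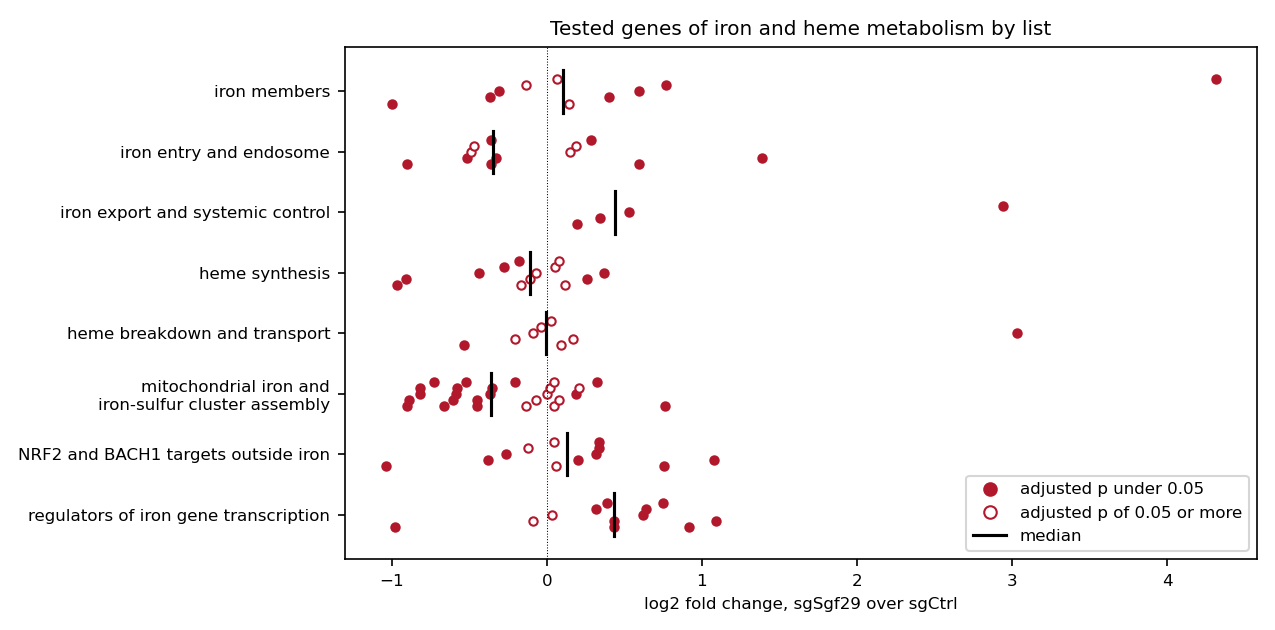
log2 fold change of sgSgf29 over sgCtrl (x axis) for every tested gene of the iron genes and of 7 further lists (rows), filled where the adjusted p was under 0.05, with a black line at the median of each row. The medians run between -0.36 for mitochondrial iron and iron-sulfur cluster assembly and 0.44 for export and systemic control.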

How the data were processed

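Messenger RNA was sequenced in 6 libraries. Of the 14 samples listed, the remaining ones hold chromatin immunoprecipitation and were not used here. The authors deposited raw counts per gene in 1 table. STAR 2.6.0a and GRCm38 stand in the submitters' processing notes, and the study's methods name STAR, featureCounts and edgeR with TMM. The table carries 5 bookkeeping entries of the kind htseq-count writes, which held 28.5% to 30.1% of it in sgSgf29 and 25.8% to 31.4% in sgCtrl libraries and were left out. How strand was handled is not given in the sources used here, while reads with several matches were set apart in a bookkeeping entry.

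Genes were filtered with filterByExpr (minimum count 10, minimum total 15) and scaled by TMM. Groups were compared by quasi-likelihood F-tests in edgeR 4.0.16 under R 4.3.3. The p-values were adjusted by Benjamini-Hochberg over all 11169 tested genes, at a threshold of 0.05. The biological coefficient of variation was 6.61%. Intervals of log2 fold changes are 1.96 SE to each side. Ratios within a library used counts with 0.5 added and an exact permutation test over libraries (scipy 1.17.1). Other settings tried were scaling by RLE, by the upper quartile and by library size alone, TMM without ribosomal protein genes, other filters, a threshold of 0.01, DESeq2 1.42.0, limma-voom (limma 3.58.1), the likelihood ratio test, a replicate block, and each library left out in turn. The procedure was tested on simulated data. No library was a copy of another, since within groups the chi-square over genes was at least 4.60 per degree of freedom.

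The genes, lists and markers were chosen with earlier results of these data known. Named were all 10 iron genes, Sgf29 and, in each other list, up to 3 changed genes with the smallest adjusted p in each direction, and of the marker lists those named beside a result. Some genes of these lists are counted but not reported here by name. Positions and sequences are from RefSeq on GRCm38.p6. A list of 6 other transcripts with a known iron-responsive element is described in the closing section.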

Additional observations from a re-analysis of the deposited data

How the results depend on the processing

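Of 160 log2 fold changes of the 10 iron genes under 16 alternatives, 152 kept their direction and their side of the threshold. Of the 8 that did not, 5 arose with library size alone, where Aco1 turned to 0.0971 and the number of iron genes called lower was 1 and of all genes 2385, against 3842. Of all calls, 30.0% were then lower, against 49.3% under TMM. Slc11a2 lay between -0.00710 and 0.159 with 1 library left out, negative without sgCtrl replicate 2. Ireb2 gave the other 2, given above. The difference in the ferritin share was -0.137 percentage points of all counts in the table. With ribosomal protein genes out of the total it was -0.270. The first total is larger than the gene counts and the second smaller. Ribosomal protein genes also took unlike shares of gene counts, 12.7% in sgSgf29 and 19.3% in sgCtrl libraries. The ratio of Aco1 to Ireb2 differed by -0.154 without sgCtrl replicate 1, against -0.281, and that of Tfrc to Fth1 by 0.0383 without sgSgf29 replicate 1, against -0.0545, while those of Fth1 to Ftl1 (0.665 to 0.716) and Slc11a2 to Slc11a1 (-4.63 to -4.02) kept their sign in all 7 alternatives. Of 272 list counts 11 moved beyond a set fold range around the main count, 8 of them with library size alone. Smaller shifts are not among the 11. For example, iron entry genes called lower numbered 4 at a threshold of 0.01 and 6 without sgCtrl replicate 3, against 5. Among the 11, by contrast, genes of heme synthesis called higher numbered 1 without sgCtrl replicate 3, against 2. With a replicate block, 3937 genes were lower and 4059 higher and no call of an iron gene changed. Deviations of same-numbered libraries correlated at 0.00507, 0.0555 and 0.0781. For sgSgf29 replicates 2 and 3 the same number gave the highest correlation, while sgSgf29 replicate 1 correlated best with sgCtrl replicate 2 (0.0401). All of these correlations were weak, and the numbers were not taken as pairs. Depth limits Slc11a1 in the sgCtrl libraries, at 5 to 18 counts.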

Other observations

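Outside the 10 iron genes, 24 genes had a match to the iron-responsive element in a curated mRNA. Of these 16 were tested, 2 were lower, 6 higher and 8 did not pass. Among all tested genes 34.4% were lower and 35.4% higher, and 69.8% passed in either direction. The matched genes were looked up after the search and named after their values were seen. Dstn, for the actin-severing protein destrin, averaged 387 ± 11.05 CPM in sgSgf29 and 570 ± 51.1 CPM in sgCtrl libraries (SD, n = 3 each), and its log2 fold change was -0.56 (SE 0.07). Sema6b, a transmembrane semaphorin, was lower by 0.52 on the log2 scale. Lims1, an adaptor of integrin adhesions, averaged 118 ± 4.19 CPM in sgSgf29 and 69.6 ± 4.37 CPM in sgCtrl libraries, a log2 fold change of 0.76 (SE 0.07). Jaml, an adhesion molecule of leukocytes, was higher by 2.20, Rab11fip5 by 1.36, Ap1m1 by 0.45, Trim23 by 0.39 and 4931428F04Rik by 0.19, all on the log2 scale.

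Of 6 further transcripts known to carry such an element, 2 were tested and neither passed. Cdc14a, a phosphatase, had a log2 fold change of 0.10 (adjusted p = 0.515). Both of the tested transcripts passed as higher with library size alone, where 49.9% of all tested genes were higher and 21.4% lower.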
